A study of Arabidopsis thaliana with 2 samples.

Results

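Lactate dehydrogenase (AT4G17260, on chromosome 4) and PDC2 (AT5G54960, a pyruvate decarboxylase on chromosome 5) are the fermentation genes described here. Their probe sets were found by gene name in the array's annotation, but the genes themselves were picked with earlier results of these data known, so their ranks below are descriptions. They are 2 of the 3592 genes that could be named, and each had 1 probe set named to it alone among the array's 8297. The RNA came from rosette leaves of Arabidopsis thaliana Col-0, stock N933, at growth stage 3.5, raised on compost in 24 h of light at 22 °C following stratification at 4 °C, in a study of nitric oxide. The group coded NOT and the group coded WDC had 1 array each, and per the labels each sample pooled 4 experiments of about 8 leaves, while the design text gives 8 pooled plants. The labels do not spell out either code, and they mention a control without tying it to NOT or WDC, so all ratios below are NOT over WDC, with no claim as to which plants were treated. A single NOT and a single WDC array give no replicate check and no p-value, and their number limits the precision of each value.

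When respiration cannot take up the pyruvate made by glycolysis, plant cells can ferment it. Lactate dehydrogenase reduces pyruvate to lactate, while pyruvate decarboxylase splits it into acetaldehyde and carbon dioxide, after which alcohol dehydrogenase makes ethanol, and both routes return NADH to NAD+ so that glycolysis can run on. In Arabidopsis these genes are best known for their response to low oxygen in roots and flooded plants, and PDC2 belongs to a small family whose member PDC1 is the strongly induced one.

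Lactate dehydrogenase had a probe-set signal, a scaled intensity, of 43.7 on the NOT array and 148.4 on the WDC array. The signal was thus 3.40-fold lower in NOT, a log2 ratio of -1.76, where a negative value means dimmer in NOT. PDC2 had a signal of 268.5 on the NOT array and 372.0 on the WDC array, 1.39-fold lower in NOT, a log2 ratio of -0.47. Both fermentation genes were therefore dimmer on the NOT array, lactate dehydrogenase past the 2-fold rule used for counts, as were 3.32% of all measured probe sets in this direction, and PDC2 short of the 1.5-fold rule used for gene lists. All these signals lay above the floor of 12.5, below which no ratio was taken, the lowest of them at 3.50 times the floor.

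**Figure D1:**
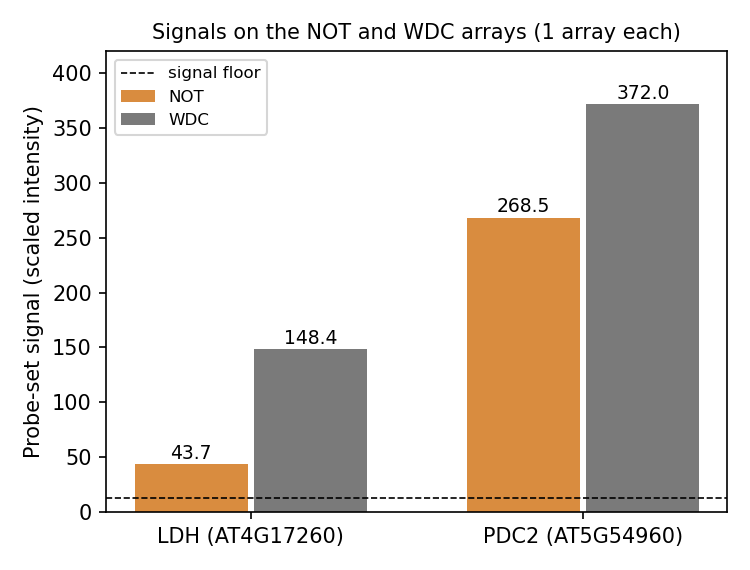
Probe-set signal in scaled intensity units (y axis, from 0) of lactate dehydrogenase and PDC2 on the NOT array (left bar of each pair) and the WDC array (right bar), with the floor of 12.5 as a dashed line. There is 1 array per group and so no error bar. The lactate dehydrogenase bars stand at 43.7 in NOT and 148.4 in WDC, and the PDC2 bars at 268.5 and 372.0.

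The sizes of these ratios were read against the whole array. Ratios were taken for 4753 probe sets that exceeded the floor in NOT and in WDC. Their median was 0.00 on the log2 scale and their quartiles -0.24 and 0.22, 158 (3.32%) were at least 2-fold lower in NOT and 415 (8.73%) at least 1.5-fold lower. Lactate dehydrogenase had the 46th lowest ratio among them, and the 19th lowest among 1934 named genes, each taken by its brightest probe set. PDC2 stood at position 585 of the probe sets and 247 of the genes. In the order of gene ratios lactate dehydrogenase lay between AT4G13180 at -1.76 and AT1G03440 at -1.73, and PDC2 between AT1G15350 and AT2G28600, both at -0.47. In brightness rank, which orders probe sets and not amounts of transcript, the lactate dehydrogenase probe set was at percentile 62.0 in NOT and 80.9 in WDC, and the PDC2 probe set at 88.0 in NOT and 91.0 in WDC.

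**Figure D2:**
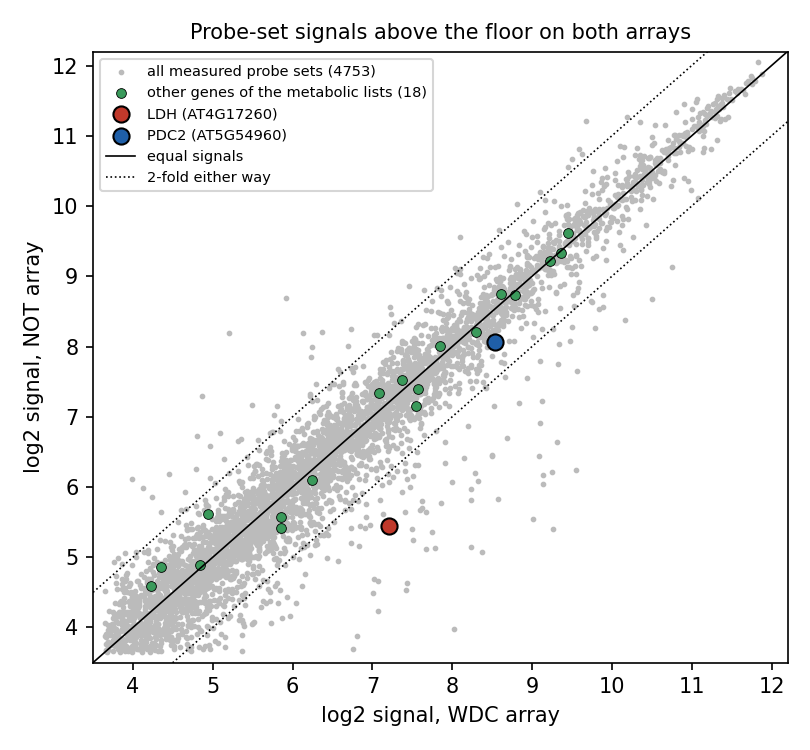
Log2 signal on the NOT array (y axis) against log2 signal on the WDC array (x axis) for the 4753 probe sets above the floor on both (grey), the 18 other measured genes of the metabolic lists (green), lactate dehydrogenase (red) and PDC2 (blue). The solid line marks equal signals and the dotted lines a 2-fold difference. Lactate dehydrogenase lies below the lower dotted line, and PDC2 between it and the line of equal signals.

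Ratios scatter more at low signal, so each gene was set beside the 200 probe sets nearest to it in mean log2 signal. Around lactate dehydrogenase, whose geometric mean signal was 80.5, these spanned mean signals of 74.9 to 86.5, and their log2 ratios had a median of 0.02, quartiles of -0.25 and 0.25 and an SD of 0.52. Only 2 of the 200 had a lower ratio than lactate dehydrogenase, which puts it at percentile 1.00 of its neighbours, and 7 of the 200 were 2-fold lower. One of those 2 was the small heat shock protein AT1G59860 at -2.55, named after its value was seen, and the other carried no gene name.

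Around PDC2, with a geometric mean signal of 316.0, the neighbours spanned 273.6 to 364.2, with a median log2 ratio of 0.04, quartiles of -0.18 and 0.22 and an SD of 0.41. Here 10 of the 200 had a lower ratio than PDC2 (percentile 5.00), and the same number were at least 1.5-fold lower. Of these 10, 7 had no name. The named ones were Hsp70-2, a cytosolic chaperone, at -1.30, AT1G67250 at -0.75 and AT4G15770 at -0.63, named after their values were seen. The Hsp70-2 probe set carries a suffix that marks probes matching several sequences. The PDC2 percentile depended on the choice of neighbours, at 8.00 with the 400 nearest probe sets and 9.50 with neighbours chosen by the WDC signal alone. For lactate dehydrogenase these choices gave 1.25 and 0.50.

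**Figure D3:**
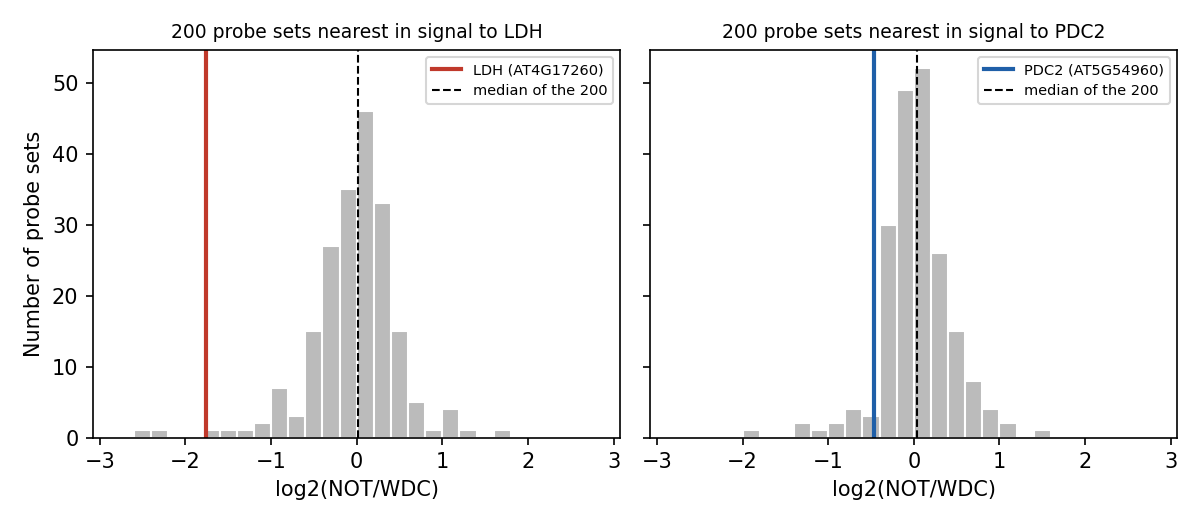
Number of probe sets (y axis) by log2 ratio of NOT over WDC (x axis, bins of equal width) among the 200 probe sets nearest in mean log2 signal to lactate dehydrogenase (left) and to PDC2 (right). The coloured line is the gene itself, at -1.76 and -0.47, and the dashed line the median of the 200, at 0.02 and 0.04. To the left of the coloured line lie 2 probe sets around lactate dehydrogenase and 10 around PDC2.

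With no replicate arrays, a spread was taken between probe sets of the same gene, which covers part of the probe noise. All of them were read on the same arrays, so variation between plants, labellings and hybridisations is left out. Whether probe sets of a gene share probes was not tested. Over 93 named genes with several measured probe sets, the log2 ratios of a gene's probe sets had a pooled SD of 0.20, and the gap between its highest and lowest ratio had a median of 0.20, a 95th percentile of 0.61 and a maximum of 0.87. The ratio of lactate dehydrogenase exceeded all of these gaps in size, but they do not measure variation between arrays. The 200 probe sets nearest to it in signal had log2 ratios with a wider SD, 0.52. The PDC2 ratio was matched or exceeded by the gap in 10 of the 93 genes, so a difference of its size also occurred between probe sets of the same gene. The log2 ratio of lactate dehydrogenase was lower than that of PDC2 by a difference of -1.29, which none of the 93 gaps reached. Neither gene had a second probe set named to it alone with which its own ratio could be checked. Probe sets with no gene name or with several were not used for this.

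The lactate dehydrogenase probe set has the suffix that marks probes matching more than 1 sequence, whereas the PDC2 probe set has none. Probe sets with this suffix had a share of 2-fold lower ratios of 3.91% (39 of 997), and unmarked ones one of 3.26% (111 of 3409). Where shared probe sets are left out below, those with any other marking suffix are left out too. Whether another transcript added to the lactate dehydrogenase signal was not tested.

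Both fermentation genes were set beside other genes of carbon metabolism. In 12 lists of fermentation, glycolysis, pyruvate use, respiration, oxygen sensing and nitric oxide genes, 26 of the 202 genes could be matched to a probe set and 20 of these were above the floor on both arrays. Lactate dehydrogenase and PDC2 had the lowest ratios of these 20, but PDC2 at -0.47 was close to the next gene, AT4G17670 at -0.43. Control probe sets for GAPDH, at -0.54, -0.36 and -0.60, were not counted among the 20. The other 18 ranged from -0.43 to 0.68 with a median of 0.02, with 0 at least 1.5-fold lower and 1 at least 1.5-fold higher, where the shares over all 1934 named genes were 9.05% and 4.71%. Without probe sets with any marking suffix, lactate dehydrogenase is no longer measured and 0 of 15 remaining genes of the lists were 1.5-fold lower.

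Glycolysis supplies the pyruvate on which both enzymes act. The 7 measured genes, of 49 listed, all differed by less than 1.5-fold and had a median log2 ratio of 0.00. The GAPDH control probe sets described below are not among these 7. Both subunits of the pyrophosphate-dependent phosphofructokinase were measured, the alpha subunit AT1G20950 at -0.29, with a signal of 47.5 in NOT against 58.0 in WDC, and the beta subunit AT1G12000 at 0.26, with 162.4 in NOT and 135.5 in WDC. These subunits of the same enzyme therefore pointed in opposite directions by small amounts. The lowest and highest ratios among the 7 were that of AT1G20950 and that of the enolase ENOC, at 0.37. The pyruvate kinase AT2G36580, which makes the pyruvate, had a signal of 596.4 in NOT against 595.7 in WDC (log2 ratio 0.00), and a further pyruvate kinase, AT4G26390, was below the floor on both arrays.

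Pyruvate that is not fermented can be turned into acetyl-CoA by pyruvate dehydrogenase, in mitochondria and in plastids. The 4 measured genes of enzymes that make or use pyruvate or phosphoenolpyruvate, of 25 listed, all encode subunits of that complex, and their log2 ratios had a median of 0.15 and ran from -0.03 to 0.51. The beta subunit MAB1 of the mitochondrial enzyme had a signal of 646.4 in NOT against 659.0 in WDC. The acetyltransferase subunit AT1G54220 had the highest ratio, with a signal of 29.2 in NOT against 20.5 in WDC (log2 ratio 0.51) on a dim probe set. The other acetyltransferase gene, LTA3, had 3 probe sets with log2 ratios of 0.02, 0.21 and 0.15. The remaining gene, AT2G34590, had a signal of 256.9 in NOT against 231.1 in WDC (log2 ratio 0.15).

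In the tricarboxylic acid cycle, 4 of 23 listed genes were measured, all within 1.5-fold, with a median of -0.01. The succinate dehydrogenase subunit SDH1-1 was the lowest, at -0.39, with a signal of 142.8 in NOT against 186.8 in WDC, and the succinyl-CoA ligase subunit AT2G20420 the highest, at 0.14. Malate dehydrogenases share the fold of lactate dehydrogenase, and 1 of 9 listed was measured, the plastid MDH, with a signal of 295.9 in NOT against 315.5 in WDC and a log2 ratio of -0.09.

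**Figure D4:**
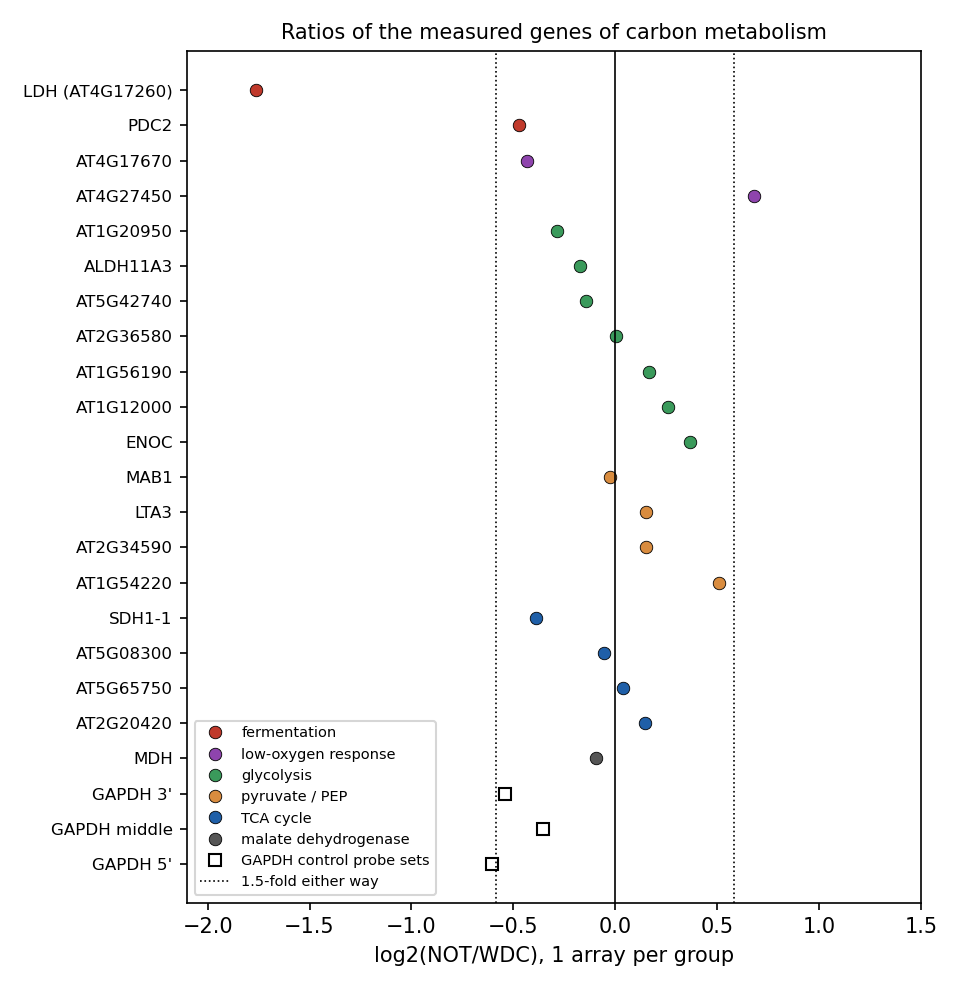
Log2 ratio of NOT over WDC (x axis) for the 20 measured genes of the lists, coloured by list, and for the 3 GAPDH control probe sets of the array (open squares). Dotted lines mark 1.5-fold either way. Lactate dehydrogenase lies at -1.76, the other listed genes lie between -0.47 and 0.68, and the GAPDH probe sets between -0.60 and -0.36.

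The array also carries control probe sets for GAPDH, the glycolytic dehydrogenase that makes the NADH which fermentation uses up, and these were examined after the values were seen. They had a signal of 1069 in NOT against 1557 in WDC at the 3' end, 2091 in NOT and 2675 in WDC in the middle, and 862.3 in NOT and 1311 in WDC at the 5' end. Their log2 ratios were -0.54, -0.36 and -0.60, a range that holds the PDC2 value of -0.47. The probe set at the 5' end was past the 1.5-fold rule, and the others were short of it. The actin control stood at -0.05, but the ubiquitin control probe sets scattered from -0.20 to 0.57. Control probe sets under the same name can therefore differ by more than the PDC2 ratio. The GAPDH, actin and ubiquitin control probe sets all carry suffixes counted here as shared sequence. Whether those of ubiquitin read a single transcript was not tested. The 3' over 5' signal of GAPDH was 1.24 in NOT and 1.19 in WDC, and that of ubiquitin 1.45 in NOT and 1.13 in WDC. The part of RNA quality in the fermentation ratios was not tested.

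Low oxygen is the setting in which both genes are usually studied, and the low-oxygen list was scarcely measured. Of 43 genes, 4 had a named probe set and 2 were above the floor on both arrays. AT4G27450 was 1.60-fold higher in NOT, with a signal of 49.1 against 30.6 in WDC, and AT4G17670 read 42.7 in NOT against 57.7 in WDC, at a log2 ratio of -0.43, next to that of PDC2. These genes went opposite ways, and AT4G33560 and AT2G17850 were below the floor on both arrays. The remaining 9 of 11 listed fermentation genes, among them the alcohol dehydrogenase gene, PDC1 and the alanine aminotransferases, had no named probe set and were not analysed here. The same held for all 15 genes of oxygen sensing, all 7 of nitric oxide metabolism and haemoglobins, all 11 of sucrose breakdown, all 6 other thiamine diphosphate enzymes and all 4 of lactate handling outside lactate dehydrogenase. Of 12 alternative respiratory enzymes, NDB3 and NDB4 had a named probe set, below the floor on both arrays.

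The genes most like each member were taken as the 5 with the smallest distance in the plane of both log2 signals, a measure over 2 arrays only. For lactate dehydrogenase the nearest was AT2G36220, with a signal of 45.0 in NOT against 141.9 in WDC and a distance of 0.08. AT1G23205, AT4G13180, AT4G15420 and ARL, a regulator of organ growth, followed at distances of 0.19 to 0.37, with log2 ratios of -1.52, -1.76, -1.36 and -1.40. All 5 were at least 2-fold lower in NOT, as the choice by distance fixes. For PDC2 the nearest was STZ, a zinc finger repressor of stress responses, with a signal of 255.7 in NOT against 345.7 in WDC (log2 ratio -0.44). PGY1, a ribosomal protein, AT2G39020, AT4G15770 and AT4G22820 followed, with log2 ratios of -0.25, -0.25, -0.63 and -0.34.

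On the chromosome, the neighbour AT4G17270 of lactate dehydrogenase had a signal of 147.4 in NOT against 133.3 in WDC (log2 ratio 0.15). Among the 5 genes on either side, 3 further ones (AT4G17240, AT4G17250 and AT4G17280) had named probe sets and were below the floor on both arrays. The low ratio of lactate dehydrogenase was not shared by the measured gene next to it. None of the 5 genes on either side of PDC2 had a named probe set.

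The labelled tissue is rosette leaves, while the extraction label speaks of seedlings. Photosynthesis genes were read, but they cannot tell these apart, since green seedlings also bear leaves. The 5 named of 22 listed photosynthesis genes, each taken by its brightest probe set, were bright on both arrays. Signals ran from 304.1 to 3135 in NOT and from 374.6 to 3028 in WDC, and summed to 8952 in NOT and 9045 in WDC. Their log2 ratios ran from -0.30 to 0.05. A further, dimmer probe set of LHB1B2 read 98.6 in NOT and 79.8 in WDC (log2 ratio 0.31). The lists for root, flower and seed had no named probe set, so the presence of other tissue could not be examined. In a pooled tissue, fewer cells of a type and less RNA per cell cannot be told apart. The 9 spiked-in hybridisation controls spanned log2 ratios of -0.28 to -0.03 around a median of -0.14, so the technical controls were themselves slightly dimmer in NOT.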

How the data were processed

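The deposited values are 1 probe-set intensity per array on a linear scale, from 1-colour biotin arrays. Both arrays had the same trimmed mean of 100.1 (2% cut from either tail), so the authors appear to have scaled them to it. How probes were summarised into intensities was not stated in the labels. Probe sets were named through the platform's annotation table, and RefSeq's gene list (TAIR10.1) updated the symbols and gave the order of genes. Among the 8247 non-control probe sets, 3794 had 1 gene, of which 3784 were found in RefSeq, 70 had several and 4383 had none.

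The floor was the 40th percentile of pooled non-control intensities, 12.5, and no offset was added before log2. Each gene was given by its brightest probe set. With 1 array per group no test was run. The members and gene lists were chosen with earlier results of these data known. Named genes were both members, measured list members past 1.5-fold or else the largest in each list. The 5 genes nearest in both signals and neighbours within 5 genes on the chromosome were also named. Some further list members, among them AT1G12000, AT2G36580, MAB1 and LTA3, were named outside this rule. Alternatives covered scaling, an offset, the floor, shared probe sets and the choice of neighbours. Counting was tested on simulated data with less scatter than the ratios of probe sets of similar signal here. That checks the code and not the error of these data. Python 3.11.15 was used with pandas 2.3.3, numpy 2.4.6, statsmodels 0.14.6 (loess) and scipy 1.17.1.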

Additional observations from a re-analysis of the deposited data

How the results depend on the processing

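The log2 ratio of lactate dehydrogenase ran from -1.77 to -1.52 over 6 alternatives and stayed past 2-fold in all of them. The value furthest from -1.76 was -1.52, with an offset of 12.5 added to both signals. The PDC2 ratio ran from -0.51 with loess to -0.33 with scaling to the spiked-in controls, short of 1.5-fold throughout. With 1 probe set per gene, the mean over probe sets could not differ. The percentile of lactate dehydrogenase among probe sets of similar signal ran from 0.50 to 2.00 over 8 alternatives, and that of PDC2 from 3.50 to 9.50. The PDC2 value of 9.50 came with neighbours chosen by the WDC signal alone, and the cause was not tested. Neighbours of the same probe-set class, chosen after seeing the data, gave 1.5 and 6.0.

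The count of probe sets at least 2-fold lower in NOT was 242 with the floor at the 25th percentile and 81 at the 60th, against 158, since these floors measure more and fewer dim probe sets. In the metabolic lists lactate dehydrogenase was the gene at least 1.5-fold lower in every setting except without shared probe sets, where it is left out by construction and 0 remained. The number at least 1.5-fold higher was 0 with the floor at the 60th percentile, which removes AT4G27450, and 2 with quantile normalization and with scaling to the spiked-in controls, where AT1G54220 passed at 0.61 and 0.65. List medians ran from -0.07 to 0.14 for glycolysis, from -0.05 to 0.14 for the tricarboxylic acid cycle and from 0.15 to 0.29 for enzymes around pyruvate, with the upper ends under scaling to the spiked-in controls, which adds 0.14 to every log2 ratio. Without shared probe sets the tricarboxylic acid cycle list had too few measured genes for a median. Signal over background limits ratios of dim probe sets. No paired analysis was possible because each group has 1 array.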
